A study of Mus musculus with 4 samples.

Results

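Halo-Sox2D, a truncated Sox2 that keeps residues 1 to 120, was compared with full-length Halo-Sox2 in D3 cells, a mouse embryonic stem cell line. Both are HaloTag fusions. HaloTag is an enzyme-derived tag that forms a covalent bond with its ligand, and HaloLink resin, on which the complexes of both libraries were isolated, carries that ligand. The libraries were made by ChIP-exo, in which an exonuclease digests each isolated fragment to the edge of the bound protein and so marks the place finely. There was 1 library of each protein, each deposited as a list of peak positions with no score, height or read number. The members are the peaks on assembled chromosomes, outside mitochondrial DNA, unplaced and random sequence, and outside 11 bins of 100 kb that held 15 or more peaks in any library of the series. They came to 5829 of 6558 peaks for Halo-Sox2 and 13241 of 13833 for Halo-Sox2D, that is 19070 of the 29255 peaks of all 4 libraries. The series also holds endogenous Sox2, isolated with an antibody, and Halo-Sox2M, a mutant with changes at the positions labelled M47G, F50 and M51G. These are used here only for reference. The sources used here do not say how the fusions were introduced, whether a line was 1 clone, or how much of each fusion the cells made.

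Sox2 belongs to the SRY-related family, whose HMG box binds the minor groove of DNA at a short A- and T-rich sequence and bends it. The HMG box lies towards the amino end of the protein and is kept in Halo-Sox2D, whereas the carboxy-terminal part, which carries the activation region, is missing. In embryonic stem cells Sox2 binds next to Oct4, the product of Pou5f1, at many distal enhancers of genes that keep the cells pluripotent. A comparison of the libraries shows where peaks of a protein with the DNA-binding domain and without the activation region were called, set beside those of the whole protein.

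The lines that follow are the DNA under single promoter peaks, in windows of 61 bp centred on the peak and lying wholly upstream of the start, from the RefSeq promoter table (GRCm38.p6, which shares its chromosome coordinates with mm10). Promoters are shown because the libraries differed most there, and distal peaks were not read for want of a genome sequence. The sites were picked after their sequences were seen, to show the Sox core hexamers ACAATG and ACAAAG under peaks of either protein. The lines show Nanog, the pluripotency homeobox gene, and Mobp, a myelin gene, for Halo-Sox2. They go on with Halo-Sox2D peaks at the same Mobp promoter, at Mtf2, which encodes a Polycomb-associated protein, and at Neurog1, a proneural factor shown for both proteins. Hes5, a target of Notch, Tubb3, a neuronal tubulin, and Tyk2, a Janus kinase, had promoter peaks of Halo-Sox2D and none of Halo-Sox2. Tubb4b, a widely expressed tubulin with 4 promoter peaks of Halo-Sox2D, is shown for contrast because its window holds no hexamer. Sequences run 5′ to 3′ on the strand of the gene, and capitals mark these hexamers or their reverse complements, which are CATTGT for the first and CTTTGT for the other.
Nanog, Halo-Sox2, chr6:122707381-122707441, plus strand: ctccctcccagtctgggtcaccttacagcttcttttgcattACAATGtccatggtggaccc
Mobp, Halo-Sox2, chr9:120149496-120149556, plus strand: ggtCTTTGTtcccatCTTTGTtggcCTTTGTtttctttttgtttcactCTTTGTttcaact
Mobp, Halo-Sox2D, chr9:120149608-120149668, plus strand: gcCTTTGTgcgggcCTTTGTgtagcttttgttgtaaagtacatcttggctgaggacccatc
Mtf2, Halo-Sox2D, chr5:108065542-108065602, plus strand: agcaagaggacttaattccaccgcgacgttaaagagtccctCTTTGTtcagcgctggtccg
Neurog1, Halo-Sox2, chr13:56252184-56252244, minus strand: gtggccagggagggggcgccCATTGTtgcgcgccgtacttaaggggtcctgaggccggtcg
Neurog1, Halo-Sox2D, chr13:56252192-56252252, minus strand: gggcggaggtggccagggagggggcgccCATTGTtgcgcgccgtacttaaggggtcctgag
Hes5, Halo-Sox2D, chr4:154960716-154960776, plus strand: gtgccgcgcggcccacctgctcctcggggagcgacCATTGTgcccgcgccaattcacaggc
Tubb3, Halo-Sox2D, chr8:123411390-123411450, plus strand: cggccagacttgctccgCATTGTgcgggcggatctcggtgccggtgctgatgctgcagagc
Tyk2, Halo-Sox2D, chr9:21131301-21131361, minus strand: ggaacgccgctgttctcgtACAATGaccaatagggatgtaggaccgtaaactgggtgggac
Tubb4b, Halo-Sox2D, chr2:25224793-25224853, minus strand: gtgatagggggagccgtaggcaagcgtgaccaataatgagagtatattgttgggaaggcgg

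With 1 library per protein no difference had a replicate check and no test was run. Intervals below are 95% intervals over peaks, genes or sequence windows (Wilson for shares, exact binomial for ratios of peak numbers), and they cover counting error only. The read depth is unknown. A list's length depends on depth and on the calling threshold as well as on binding, so the total ratio of 2.27 Halo-Sox2D peaks to 1 Halo-Sox2 peak (interval 2.20 to 2.34) is the level beside which each ratio below is read. The rule removed 11.1% of the Halo-Sox2 peaks and 4.28% of the Halo-Sox2D peaks. Peaks were 1 to 20 bp wide with a median of 11 bp in both libraries. Some listed peaks of a library overlap and share an end, and each was counted as a peak. A number of peaks at a gene is therefore not a number of separate sites. The intervals treat each listed peak, and each window under one, as separate. When peaks within 500 bp were joined, 5148 places remained for Halo-Sox2 and 11856 for Halo-Sox2D, and 89.5% and 90.5% of these places held a single peak.

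The libraries differed most in their share of peaks at promoters, taken as 1 kb to either side of a start of a protein-coding gene. Of the Halo-Sox2 peaks, 452 of 5662 lay there (7.98%, interval 7.31 to 8.72%), and of the Halo-Sox2D peaks 2351 of 12804 (18.4%, 17.7 to 19.04%). These totals leave out chromosome 18, for which no starts were used. Halo-Sox2D thus had 5.20 promoter peaks for each Halo-Sox2 promoter peak (4.70 to 5.76). From 1 to 10 kb from a start the shares were both 18.7%, and the ratio of peak numbers, 2.26, was that of the lists as wholes. Inside genes at more than 10 kb from a start lay 31.1% of the Halo-Sox2 and 29.9% of the Halo-Sox2D peaks, and outside genes, up to 50 kb away, 24.5% and 22.5%. More than 50 kb from any protein-coding gene the order was the other way, with 998 Halo-Sox2 peaks (17.6%) and 1355 Halo-Sox2D peaks (10.6%), a ratio of 1.36 (1.25 to 1.47). Endogenous Sox2 had 4.54% of its peaks at promoters and 17.5% more than 50 kb from genes, and Halo-Sox2M had 11.96% and 21.2%. The intervals of Halo-Sox2 and Halo-Sox2D do not overlap at promoters, in the zone outside genes or beyond 50 kb.

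**Figure D1:**
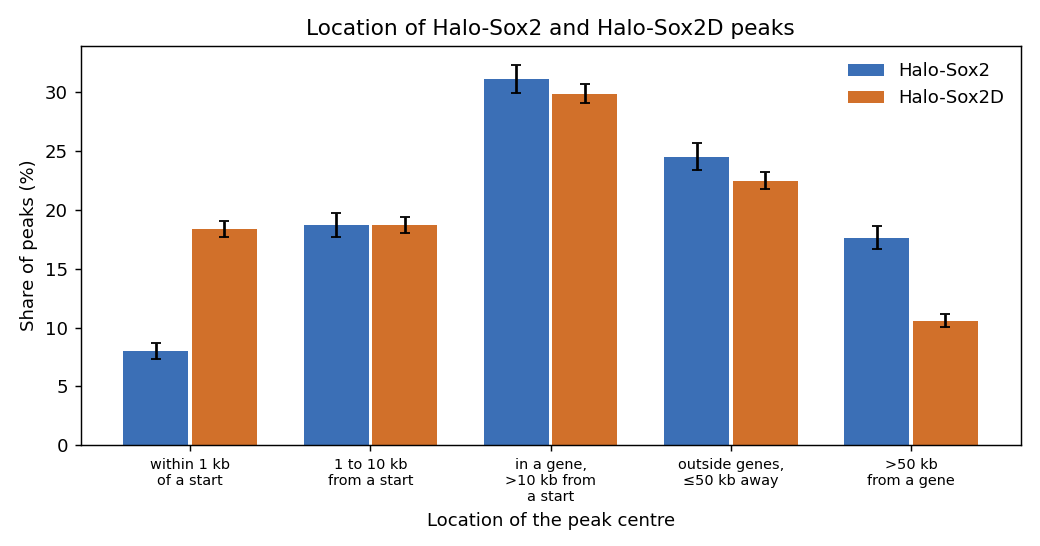
Share of peaks (%, vertical axis) in 5 locations (horizontal axis) for Halo-Sox2 (5662 peaks) and Halo-Sox2D (12804 peaks), 1 library each, with 95% Wilson intervals over peaks as error bars. Promoters held 7.98% of Halo-Sox2 and 18.4% of Halo-Sox2D peaks, and places more than 50 kb from a gene 17.6% and 10.6%.

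The excess of Halo-Sox2D peaks was steepest next to the start itself. Within 50 bp of a start there were 62 Halo-Sox2 and 508 Halo-Sox2D peaks, a ratio of 8.19 (6.29 to 10.8). The ratio was 7.06 within 100 bp, 6.57 within 250 bp, 5.77 within 500 bp, 4.26 within 2 kb and 3.56 within 5 kb. Halo-Sox2D peaks were most frequent in the last 50 bp before the start, which held 275 of them (2.15% of the list) against 30 Halo-Sox2 peaks (0.530%). Among promoter peaks alone, 42.0% of Halo-Sox2D and 28.3% of Halo-Sox2 lay from 150 bp before to 50 bp after the start. The shares on the upstream side, 62.1% and 61.7%, lay within each other's intervals. At the far ends of genes longer than 5 kb, a place for which no start is nearby, the ratio was 2.75 (2.07 to 3.69, from 67 and 184 peaks). At starts of long noncoding RNA genes that lie away from coding starts it was 3.28 (2.66 to 4.07, from 118 and 387 peaks).

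**Figure D2:**
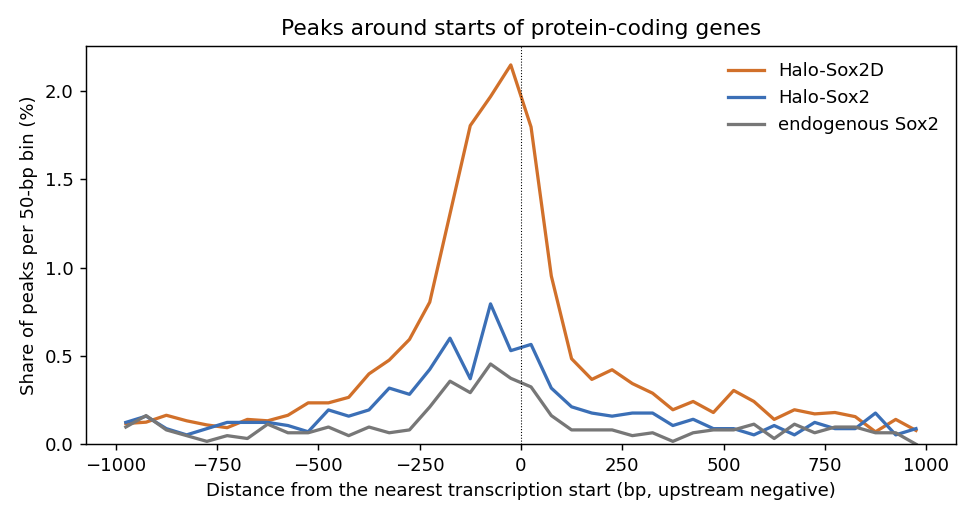
Share of each library's peaks (%, vertical axis) in 50-bp bins by distance from the nearest start of a protein-coding gene (bp, horizontal axis, upstream negative), for Halo-Sox2D, Halo-Sox2 and endogenous Sox2. Halo-Sox2D reaches 2.15% in the bin just before the start, where Halo-Sox2 has 0.530%.

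Among peaks that had another peak of the same list within 100 bp the difference was wider. Of these, 43 of 899 Halo-Sox2 peaks (4.78%) and 334 of 1575 Halo-Sox2D peaks (21.2%) lay at promoters, so that the Halo-Sox2D share was 4.43 times the Halo-Sox2 share, against 2.30 times over all peaks. With the window at 5 kb it was 1.57 times. Some of the neighbours within 100 bp are listed peaks that overlap and share an end.

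Counted by gene, 2150 of the 17492 protein-coding genes with a start had a Halo-Sox2D peak within 1 kb of it (12.3%) and 456 had a Halo-Sox2 peak (2.61%). Peaks of both were found at 143 genes (0.818%), at 138 of them within 1 kb of the same start, Halo-Sox2D alone at 2007 (11.5%), Halo-Sox2 alone at 313 (1.79%) and neither at 15029 (85.9%). An endogenous Sox2 peak lay at a start of 16.1% of the genes with both (10.96 to 23.0%), at 6.71% of those with Halo-Sox2 alone (4.43 to 10.04%), at 3.54% of those with Halo-Sox2D alone (2.81 to 4.44%) and at 0.765% of those with neither.

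Promoters with Halo-Sox2D peaks were rich in CpG dinucleotides, the mark of CpG islands, which cover the starts of most broadly expressed genes. In the 300 bp around the start (250 bp before and 50 bp after), the median was 13 CpG over all 21263 starts, 22 at starts with a Halo-Sox2D peak and 19 at starts with a Halo-Sox2 peak. Of the starts with 0 to 2 CpG, 0.833% had a Halo-Sox2D peak (32 of 3841) and 0.677% a Halo-Sox2 peak (26), so that the libraries were close there, with a ratio of 1.23 (0.711 to 2.15). With 11 to 15 CpG the shares were 15.3% and 3.54%. With 21 to 67 CpG they were 18.96% (1356 of 7151) and 3.09% (221), a ratio of 6.14 (5.32 to 7.11). The Halo-Sox2D share was higher in each bin of higher CpG number, whereas the Halo-Sox2 share was highest, at 4.22%, with 16 to 20 CpG. Starts with another start close by on the opposite strand made up 12.3% of all starts, 21.4% of those with Halo-Sox2D (19.8 to 23.0%) and 19.7% of those with Halo-Sox2 (16.5 to 23.3%). Open chromatin at CpG-rich starts was not measured here, and its part in the number of peaks was not tested.

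**Figure D3:**
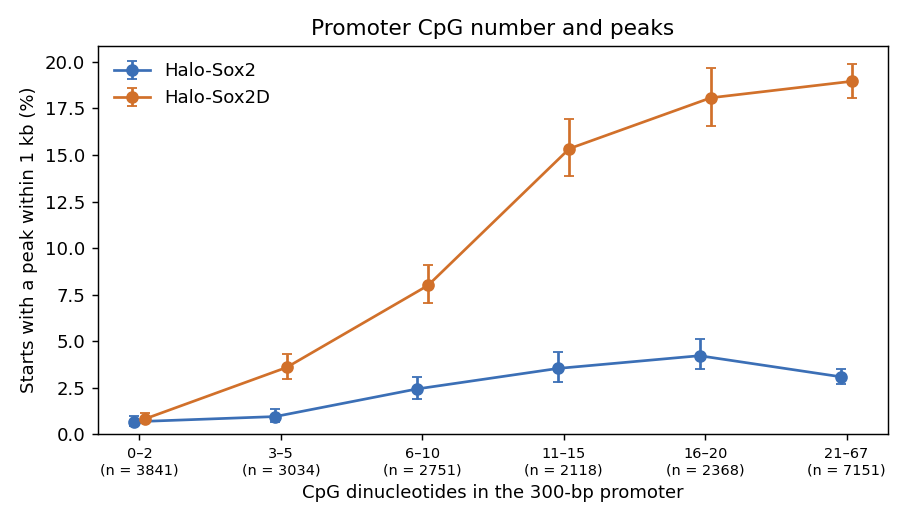
Share of starts with a peak within 1 kb (%, vertical axis) by the number of CpG dinucleotides in the 300-bp promoter (horizontal axis, number of starts in brackets), with 95% Wilson intervals over starts. The libraries are close at 0 to 2 CpG (0.833% for Halo-Sox2D and 0.677% for Halo-Sox2) and apart at 21 to 67 CpG (18.96% and 3.09%).

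Beneath the promoter peaks the Sox hexamers were more frequent than in promoters at large, in both libraries. Of the 1102 Halo-Sox2D windows, 201 held ACAATG or ACAAAG on either strand (18.2%, 16.1 to 20.6%), and of the 161 Halo-Sox2 windows 25 did (15.5%, 10.7 to 21.9%), so that the intervals overlap. The windows lay anywhere from 250 bp before to 50 bp after a start. Windows of the same length tiled over the bases before every start gave 5.86% (4987 of 85052), and windows in the promoters with Halo-Sox2D peaks but away from the peaks gave 3.60% (2.96 to 4.37%). Endogenous Sox2 windows gave 31.1% (33 of 106, 23.1 to 40.5%). Halo-Sox2D windows with no Halo-Sox2 peak within 500 bp held a hexamer in 18.1% of cases (188 of 1036), and those with one in 19.7% (13 of 66). The hexamer lay close to the middle of the peak, at a median of 6.5 bp from the centre for Halo-Sox2D and 7.5 bp for Halo-Sox2. It was within 10 bp in 69.2% and 72.0% of the windows that held one.

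Each hexamer on its own gave like values. ACAATG was in 9.71% of Halo-Sox2D windows (107), 6.21% of Halo-Sox2 windows (10) and 2.28% of all windows, and ACAAAG in 8.89% (98), 10.6% (17) and 3.68%. At Nanog the ACAATG shown above belongs to the known composite element of this promoter, at which Oct4 and Sox2 bind side by side. At Mobp the Halo-Sox2 window shown holds CTTTGT at 4 positions and the Halo-Sox2D window at 2, and another Halo-Sox2 peak lay 11 bp from the Halo-Sox2D peak. At Neurog1 windows of both proteins hold the same CATTGT.

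Other promoter sequences were searched on both strands in the same windows. The GC box GGGCGG was in 26.0% of Halo-Sox2D windows (23.5 to 28.6%), 17.4% of Halo-Sox2 windows, 15.1% of all windows and 21.8% of the windows away from peaks in Halo-Sox2D promoters. CCAAT, the site of the NF-Y factor, was in 16.5%, 13.0%, 10.98% and 12.7% in the same order, and CCGGAAG, a core of Ets factors, in 4.90%, 5.59%, 2.12% and 4.08%. The octamer ATGCAAAT of Oct factors was in 0.817% of Halo-Sox2D windows (9) and 1.86% of Halo-Sox2 windows (3), against 0.353% of all. In the windows away from peaks in Halo-Sox2D promoters the octamer was in 0.371%. TATAAA was in 0.817% of Halo-Sox2D windows, 1.24% of Halo-Sox2 windows, 3.00% of all and 0.668% of those away from peaks. The E-box CACGTG was in 2.54%, 3.11%, 1.58% and 1.93% in the same order. For CCGGAAG, the octamer, TATAAA and CACGTG the intervals of Halo-Sox2D windows and of windows away from peaks overlap. A match in a window is a description of the letters there.

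**Figure D4:**
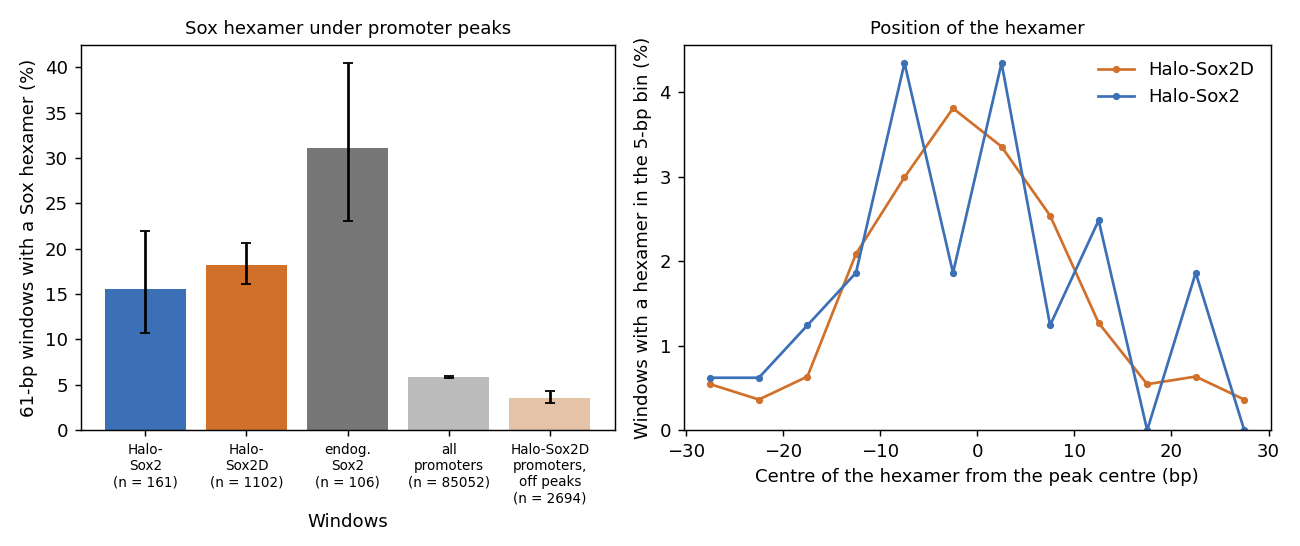
Left, share of 61-bp windows that hold ACAATG or ACAAAG on either strand (%, vertical axis) under promoter peaks of 3 libraries, in all promoter windows and in Halo-Sox2D promoters away from peaks, with 95% Wilson intervals. Right, share of windows with a hexamer centre in each 5-bp bin (%, vertical axis) by distance from the peak centre (bp, horizontal axis). Halo-Sox2D (18.2%) and Halo-Sox2 (15.5%) lie above all promoters (5.86%), and the Halo-Sox2D profile is highest next to the centre.

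Gene classes differed in how many promoters had a Halo-Sox2D peak. Families were taken by the first letters of their symbols, so some hold a few related genes, such as assembly factors. The classes were read beside the shares over all genes with a start, 12.3% for Halo-Sox2D and 2.61% for Halo-Sox2. Of the Polr genes, of the RNA polymerases, 7 of 22 had a Halo-Sox2D promoter peak and 0 had a Halo-Sox2 peak. Among cytosolic ribosomal proteins the numbers were 15 and 3 of 64, among mitochondrial ribosomal proteins 15 and 3 of 69, and among splicing factors 13 and 1 of 60. Psm genes, of the proteasome, which degrades ubiquitin-tagged proteins, had 10 and 2 of 40. Nduf genes, which encode subunits and assembly factors of the first complex of the respiratory chain, had 11 and 3 of 42. For DNA replication genes the numbers were 7 and 0 of 36, and for the fixed housekeeping list 5 and 0 of 16. Eif and Eef genes had 9 and 5 of 55, tRNA synthetases 5 and 2 of 25, and cyclins and kinases of the cell cycle 7 and 3 of 34. The Halo-Sox2D shares of all these classes ran from 16.4% to 31.8%, and the Halo-Sox2 shares from 0% to 9.09%. The Halo-Sox2D intervals of the classes in the sentence before last and of DNA replication genes include the 12.3% of all genes. Those of the others lie above it. Splicing genes with Halo-Sox2D peaks included Hnrnpa1 and Srsf4 with 3 each, and Polr2b, the second largest subunit of RNA polymerase II, had 2. Pcna, the sliding clamp of replication, had 1.

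Histone genes, which lie in clusters and share windows, had the most Halo-Sox2 promoters of these classes. Of 97 with a start, 28 had a Halo-Sox2D peak (28.9%), 13 a Halo-Sox2 peak (13.4%) and 7 had both. Neighbouring histone genes can be counted from the same peak.

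At the other end were several families with few promoter peaks. Of 940 olfactory receptor genes with a start, 0 had a Halo-Sox2D promoter peak (interval up to 0.407%) and 1 had a Halo-Sox2 peak. Of 323 vomeronasal receptor genes, which serve pheromone sensing, 0 had a peak of either. Keratins and their associated proteins had 1 and 0 of 90, serpins, which inhibit proteases, 2 and 0 of 54, cytochrome P450 genes 3 and 0 of 76, and potassium channels 3 and 0 of 69. Between these ends, zinc finger genes of the Zfp series had 49 and 15 of 331 (14.8%, 11.4 to 19.0%, and 4.53%, 2.77 to 7.34%). The Halo-Sox2D interval includes the 12.3% of all genes, and the Halo-Sox2 interval lies above the 2.61% of all genes. Solute carriers, which are membrane transporters, had 34 and 5 of 290 (11.7% and 1.72%). Level of expression was not measured here, and its part in these shares was not tested.

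**Figure D5:**
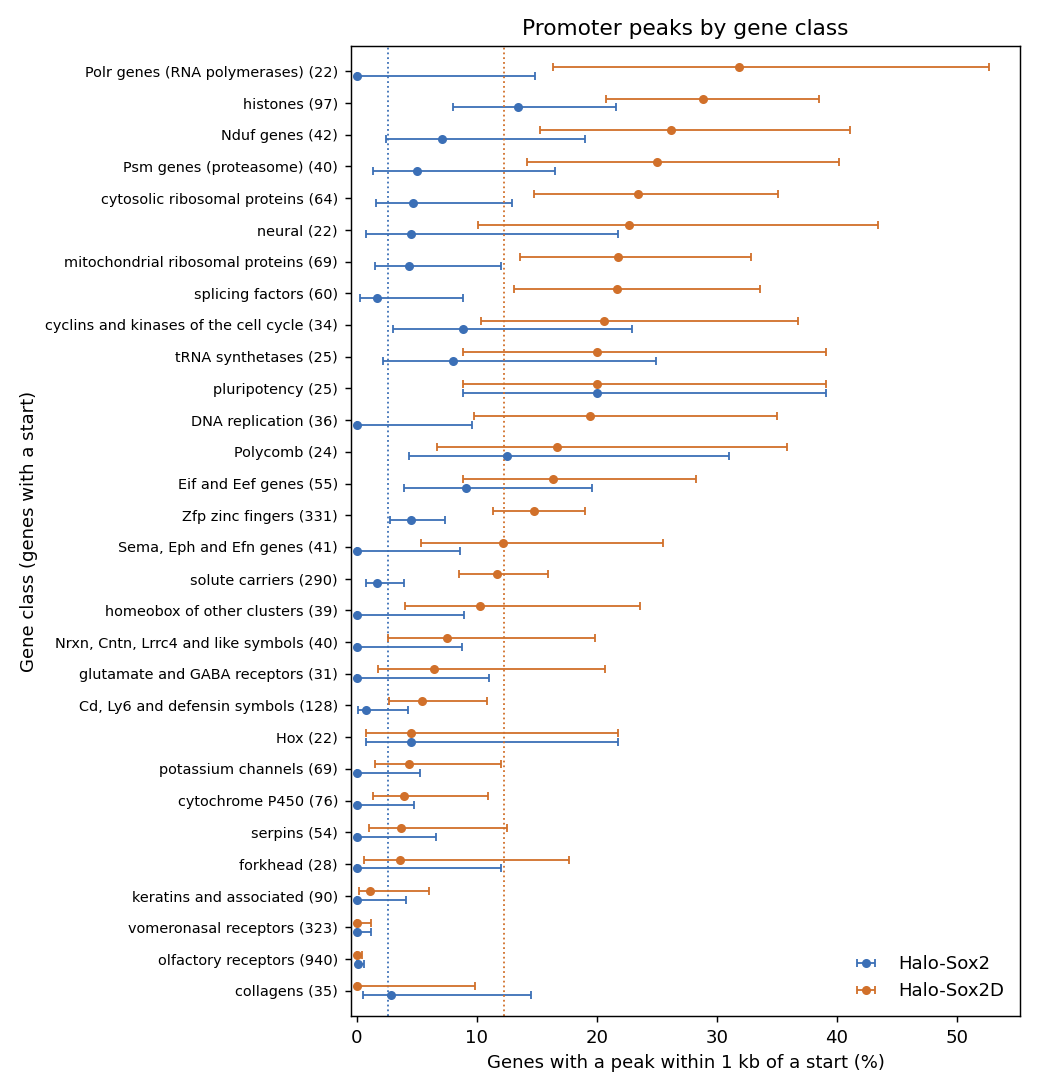
Share of genes with a peak within 1 kb of a start (%, horizontal axis) for classes of 20 or more genes with a start (vertical axis, number in brackets), with 95% Wilson intervals over genes. Dotted lines are the shares over all genes, 12.3% for Halo-Sox2D and 2.61% for Halo-Sox2, and classes are ordered by the Halo-Sox2D share, from collagens to Polr genes.

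The pluripotency list had as many promoters with one protein as with the other. Of its 25 genes with a start, 5 had a Halo-Sox2 promoter peak and 5 a Halo-Sox2D promoter peak, with 2 in common, Phc1 and Pou5f1. Each share was 20% (interval 8.86 to 39.1%). This interval includes the 12.3% of all genes for Halo-Sox2D and lies above the 2.61% for Halo-Sox2. Phc1, a Polycomb gene, had 2 peaks of each, and Pou5f1 had 1 of Halo-Sox2 and 2 of Halo-Sox2D. Nanog, Sox2 and Zscan10, a zinc finger gene of pluripotent cells, had 1 Halo-Sox2 promoter peak each and 0 of Halo-Sox2D. Just outside the 1-kb window, 2 overlapping Halo-Sox2D peaks lay 1469 and 1478 bp before the start of Nanog. Another lay 1667 bp before the start of Sox2. Within 50 kb the Halo-Sox2 and Halo-Sox2D peaks numbered 3 and 5 at Nanog, 3 and 3 at Sox2, and 2 and 3 at Zscan10. Trim28, a corepressor of endogenous retroviruses, had 2 Halo-Sox2D promoter peaks and 0 of Halo-Sox2. Etv5 and Otx2 had 1 Halo-Sox2D promoter peak each and 0 of Halo-Sox2. Of the Polycomb list, 4 of 24 had a Halo-Sox2D promoter peak and 3 a Halo-Sox2 one. Among the Polycomb genes Rbbp4, a histone chaperone shared by several complexes, had 3 Halo-Sox2D peaks and 0 of Halo-Sox2. Of NuRD and other remodellers the numbers were 6 and 0 of 18, with Mbd3, Arid1b and Smarcd1 at 2 each. Of neural genes 5 and 1 of 22 had one, the 5 being Hes5, Neurog1, Neurog2, Nes and Tubb3. Of FGF and ERK signalling genes 6 and 2 of 16 had one, with Dusp6, a phosphatase that acts on ERK, at 2 and 1, and Map2k1, the kinase above ERK, at 2 and 0. Of LIF and Stat3 genes the numbers were 4 and 2 of 14, with Stat3, the transcription factor of that pathway, at 2 of each. Wnt genes had 0 of either among 18, and TGF-beta family genes 1 and 0 of 16. Coactivators and Mediator had 2 and 2 of 19, DNA methylation genes 2 and 0 of 10, mesendoderm genes 1 and 0 of 17, and trophoblast genes 0 and 1 of 13. The lists of fibroblast genes (11 with a start) and of genes of other tissues (15) had 0 of either. Among the lists of this paragraph, the Halo-Sox2D interval lay above 12.3% for FGF and ERK genes and for NuRD and other remodellers. For the others it included 12.3%. The Halo-Sox2 interval lay above 2.61% for the pluripotency, FGF and ERK, LIF and Stat3, Polycomb, and coactivator and Mediator lists. For the rest it included 2.61%.

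In a wider window, the gene body and 50 kb to either side, a Halo-Sox2D peak was present at 12627 of 21887 protein-coding genes (57.7%) and a Halo-Sox2 peak at 7071 (32.3%). Both were present at 5499 genes (25.1%), Halo-Sox2D alone at 7128 (32.6%), Halo-Sox2 alone at 1572 (7.18%) and neither at 7688 (35.1%). A list with more peaks reaches more genes wherever its peaks lie, and neighbouring genes share windows. Genes with Halo-Sox2D alone had up to 14 peaks, and 30.2% of them had 3 or more. Genes with Halo-Sox2 alone had up to 8, and 6.17% had 3 or more. Endogenous Sox2 had a peak at 53.1% of the genes with both, 28.7% of those with Halo-Sox2 alone, 27.2% of those with Halo-Sox2D alone and 8.70% of those with neither. When promoter peaks were left out, 6446 genes had Halo-Sox2D alone and 1882 had Halo-Sox2 alone.

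Because windows overlap, the classes were also compared by the number of distinct peaks within 50 kb, for which the ratio over all protein-coding genes was 2.47 (2.39 to 2.55). It was 4.61 at cytosolic ribosomal protein genes (3.23 to 6.72, from 38 and 175 peaks), 4.39 at mitochondrial ribosomal protein genes (3.04 to 6.49), 4.67 at the housekeeping list (2.47 to 9.57) and 3.86 at splicing factor genes (2.64 to 5.77). Solute carriers, with 11.7% of promoters, nevertheless had a ratio of 3.25 (2.74 to 3.86). It was 2.10 at pluripotency genes (1.54 to 2.88, from 63 and 132 peaks), 2.29 at FGF and ERK genes (1.57 to 3.37), 2.09 at Zfp genes (1.79 to 2.46), 1.78 at neural genes (0.968 to 3.36) and 1.76 at Sox genes (1.05 to 3.00). The lowest ratios among the larger families were at olfactory receptors, 1.27 (0.881 to 1.83, from 56 and 71 peaks), and vomeronasal receptors, 1.33 (0.761 to 2.37).

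Of the 345 genes in 15 lists of pathways and cell types, 137 had Halo-Sox2D peaks alone (39.7%, against 32.6% of all genes), 29 had Halo-Sox2 peaks alone (8.41%, against 7.18%) and 122 had both (35.4%, against 25.1%). Mesendoderm genes had the highest share with Halo-Sox2D alone, 14 of 25, followed by Wnt signalling with 13 of 25. Coactivators and Mediator had 13 of 26, DNA methylation 6 of 12 and the list of genes of other tissues 10 of 20. Halo-Sox2 alone was found at 4 of 28 Polycomb, 4 of 30 neural and 4 of 20 fibroblast genes, the last of which mark a cell type not described for these cultures. With 20 to 40 genes in most lists, the shares are imprecise. Neighbouring genes of a list can count the same peak, so the numbers of genes are not numbers of separate places.

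The list genes with the most Halo-Sox2D peaks and none of Halo-Sox2 within 50 kb were led by Uhrf1, which guides maintenance methylation of DNA, with 10 peaks. One of these lay at chromosome 17, 56304387, which is inside the gene and 74 bp after one of its starts, and 3 lay together at 56291335 to 56291411, 11.935 to 11.998 kb upstream of the gene's first base. Mbd3, a subunit of the NuRD repressor, had 7, one of them 263 bp before its start. Pcgf1, of a variant Polycomb complex, also had 7, with 2 inside the gene and 3 within a short stretch 40.7 to 40.8 kb above it. Of those 3 peaks, 2 overlap and share an end, and they lay 112 and 120 bp before a start of another gene, Wbp1. Dvl2, a relay of Wnt receptors, Ppia, a housekeeping prolyl isomerase, Ptpn11, a phosphatase that links receptors to ERK, Rps18, a ribosomal protein, Sos1, the exchange factor that activates Ras, and Tcf7l2, a Wnt transcription factor, had 6 each. At Rps18 one peak lay 172 bp before the start and the others 20.8 to 36.3 kb outside the gene. Arid1a, a subunit of the BAF remodeller, had 5.

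Those with Halo-Sox2 alone had few peaks. Kmt2c, a histone methyltransferase of enhancers, and Tet2, which oxidises methylated cytosine, had 3 each, and Acta2, Ccnc, Phc3 and Ttn had 2 each. At Kmt2c and at Acta2, 2 of the peaks counted overlap and share an end. B2m, Chd7 and Dcn had 1. All 3 peaks at Tet2 lay inside the gene, at chromosome 3, 133532753 to 133532767, 133532776 to 133532787 and 133534349 to 133534352, where endogenous Sox2 had 4 peaks within the same 50-kb window. The 3 at Kmt2c lay 34.6 to 37.7 kb above the gene. Acta2, Dcn and Ttn mark other cell types (smooth muscle, fibroblasts and striated muscle).

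At 49 of the 345 list genes (14.2%) peaks of the libraries lay within 500 bp of each other. The same share over all protein-coding genes is not given here, so the number is not read as a trait of the lists. Spry2, an antagonist of FGF signalling, had 11 Halo-Sox2 and 9 Halo-Sox2D peaks, and 7 of the 11 had a Halo-Sox2D peak within 500 bp. Etv5, an Ets factor downstream of ERK, had 4 and 11. Its nearest pair lay inside the gene on chromosome 16, at 22429001 to 22429020 for Halo-Sox2 and 22429054 to 22429056 for Halo-Sox2D, and a further Halo-Sox2D peak lay 163 bp before the start. Spry4 had 4 and 10, Spred1, another inhibitor of ERK signalling, 2 and 8, and Lefty2, a Nodal antagonist, 2 and 8. At Tcf7l1, a Wnt-pathway repressor, there were 5 and 12, of which one pair had centres 7 bp apart inside the gene. Jarid2, which recruits Polycomb complex 2, had 4 and 7, with a pair 8 bp apart. Klf2, a factor of naive pluripotency, had 4 and 6, with a pair 4 bp apart 2.84 kb before the gene, at chromosome 8, 72316221 to 72316223 and 72316217 to 72316220. Sox21, a relative of Sox2 that counters it in neural cells, had 6 and 4, and 5 of its 6 Halo-Sox2 peaks had a Halo-Sox2D peak within 500 bp. These lay in a cluster 2.71 to 3.02 kb from the gene, at chromosome 14, 118230209 to 118230532, where endogenous Sox2 had 0 peaks in the window of the gene. Pou5f1 had 3 and 7, with all 3 Halo-Sox2 peaks matched within 500 bp.

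Summed over the starts of a gene, the genes with promoter peaks of both proteins and most of them were Mobp (5 Halo-Sox2 and 1 Halo-Sox2D), Stk38, a kinase gene (4 and 2), Kdm3a, a histone demethylase (3 and 2), Mtf2 (1 and 4) and Nup153, of the nuclear pore (2 and 3). At Mtf2 the Halo-Sox2 peak lay at another start than the Halo-Sox2D peaks, and so did 2 of the 3 Halo-Sox2 peaks at Kdm3a. The 2 Halo-Sox2D peaks at Stk38, 2 of the 4 at Mtf2 and the 2 Halo-Sox2 peaks at Nup153 overlap and share an end. Adrm1, a ubiquitin receptor of the proteasome, had 2 of each. The 2 Halo-Sox2 peaks there overlap and share an end, with centres 163 and 171 bp before the start. One Halo-Sox2D peak lay 162 bp before the start, 1 bp from the nearer Halo-Sox2 centre, and the other lay 653 bp before it. Nfe2l2, the factor of the oxidative stress response, had 1 and 3, with the Halo-Sox2 peak 189 bp and the nearest Halo-Sox2D peak 229 bp before the start. Cep170, Paip2b and Phb also had 1 and 3.

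Counted in the same way, genes with 4 Halo-Sox2D promoter peaks and none of Halo-Sox2 were Hbp1, Lamtor1 and the overlapping Tomt, Tmed1, Tubb4b, Zbtb45, Zdbf2 and Zfp146. At Lamtor1 and Tomt, at Tmed1 and at Tubb4b, 2 of the 4 overlap and share an end. Hbp1 is an HMG-box gene, Lamtor1 anchors a signalling complex to lysosomes, and Zdbf2 is an imprinted gene. Actr3 and Adpgk had 3. At Zdbf2 the peaks lay from 160 bp before to 240 bp after the start, and the nearest Halo-Sox2 peak was at 1.67 kb before it. Genes with Halo-Sox2 promoter peaks and none of Halo-Sox2D had fewer: Mad1l1, of the spindle checkpoint, had 3, and Acp6, Armcx1, Btf3l4, Clpp, Eif4h, Klhl5, Ndufs4, Prr14 and Ptpn4 had 2.

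Inside gene bodies, which hold exons and introns that were not told apart, Halo-Sox2D had peaks in 4460 genes (20.4%) and Halo-Sox2 in 1974 (9.02%). Halo-Sox2D alone had them in 3425 (15.6%), Halo-Sox2 alone in 939 (4.29%), both in 1035 (4.73%) and neither in 16488 (75.3%). Zfp423, a zinc finger gene of neural development, had 9 Halo-Sox2D peaks spread over the gene and 0 of Halo-Sox2. The overlapping protocadherin genes Pcdhga9, Pcdhga10, Pcdhga11 and Pcdhga12 each counted the same 8. Sez6 had 6 Halo-Sox2 peaks and 0 of Halo-Sox2D in its body. Larp7, whose product binds the 7SK RNA, had 5 Halo-Sox2 peaks close together, at chromosome 3, 127544743 to 127545002, and 0 of Halo-Sox2D. With both, Gse1 had 2 Halo-Sox2 and 15 Halo-Sox2D peaks, Arhgap26 4 and 17, and Etl4 9 and 12. Zfp993 (13 and 6) and Zfp978 (13 and 4) belong to a zinc finger family with near-identical copies, where the assignment of reads is uncertain.

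Finally, the places themselves were compared. Of the Halo-Sox2 promoter peaks 28.3% (128 of 452, 24.4 to 32.6%) had a Halo-Sox2D peak within 500 bp, against 20.1% of those farther than 1 kb from a start (1048 of 5210, 19.05 to 21.2%) and 15.5% of those more than 50 kb from genes. In the other direction the order was reversed: 6.21% of Halo-Sox2D promoter peaks (146 of 2351, 5.30 to 7.26%) had a Halo-Sox2 peak within 500 bp, against 10.4% of distal ones (9.86 to 11.03%). Among the 1207 Halo-Sox2 peaks with a Halo-Sox2D peak nearby, the median distance between centres was 47 bp, and 282 lay within 10 bp. The share with a neighbour depends on how many peaks the other list has at such places. Halo-Sox2D had 5.20 peaks per Halo-Sox2 peak at promoters and 2.26 over all locations. The part of this in the opposite orders was not tested. The share also depends on the distance allowed. For Halo-Sox2 it was 10.6% at 50 bp and 4.67% at an overlap of 1 bp, with 4.84% and 2.04% for Halo-Sox2D.

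Places with both fusions often had endogenous Sox2 too. Of Halo-Sox2 peaks with a Halo-Sox2D peak nearby, 51.6% had an endogenous Sox2 peak within 500 bp (48.8 to 54.4%), against 18.3% of the others (17.2 to 19.4%). Of Halo-Sox2D peaks the shares were 51.1% (48.3 to 53.8%) and 8.25% (7.77 to 8.75%). At distal places they were 55.0% and 9.33% for Halo-Sox2D, and at promoters 17.8% (26 of 146) and 3.90% (86 of 2205). For Halo-Sox2 they were 54.7% and 19.3% at distal places, and 23.4% and 7.41% at promoters. Of the endogenous Sox2 promoter peaks themselves, 39.3% (33.7 to 45.1%) had a Halo-Sox2D peak within 500 bp and 26.1% (21.3 to 31.5%) a Halo-Sox2 peak, and of the distal ones 31.5% and 30.1%.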

How the data were processed

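ChIP-exo had been done on D3 mouse embryonic stem cells for 4 libraries, 1 per protein, so no group had replicates. Per the labels' protocols, sonicated nuclei were cleared and complexes isolated with antibody or HaloLink resin. The submitters' processing notes name Bowtie2 and mm10, while the sources used here give no version, peak caller, threshold or filter. The authors deposited 1 list of peak coordinates per library, with no score, so depth is unknown, a stricter threshold could not be set, and more reads or a looser threshold would lengthen a list. No control of resin alone was used here.

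Groups were taken from the labels. Peaks on mitochondrial, unplaced and random sequence and in 11 bins of 100 kb with 15 or more peaks were dropped. Each peak was taken at its centre. Genes were placed by RefSeq's GRCm38.p6 table (21887 protein-coding genes), and starts from its promoter table, which gave a start for 17492 of them (79.9%), 21263 starts in all and 0 on chromosome 18. Measures that use starts therefore leave out chromosome 18, and a peak at a missing start counts as distal. Motifs were read only where a window lay within the 300 bp of that table (250 before to 50 after a start), and the windows tiled over all promoters lay before the start. Shares have Wilson intervals and ratios exact binomial intervals (scipy 1.17.1, 95%). Tools were Python 3.11.15, numpy 2.4.6, pandas 2.3.3 and matplotlib 3.10.9, and gene counts were checked against bedtools 2.31.1. As a check of the counting code alone, peaks planted near starts of the same table in simulated lists were all recovered.

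The comparison, gene lists and families were chosen with earlier results of these data known, and the motif search and the alternative that uses either end of each gene were added after the data were seen. Named list genes are Sox2, Pou5f1 and Nanog and, for list genes within 50 kb and for all promoters and bodies, those with most summed peaks in both libraries, in Halo-Sox2D alone and in Halo-Sox2 alone. Other class genes, and the sites whose sequences are printed, were named after their values were seen. Not every gene that met the rule is reported here.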

Additional observations from a re-analysis of the deposited data

Results flagged for a closer look

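Peaks that the comparison leaves out were plentiful on mitochondrial DNA, which had 98 Halo-Sox2 and 90 Halo-Sox2D peaks, against 3 of endogenous Sox2 and 15 of Halo-Sox2M. The unplaced sequence JH584304 had 247 Halo-Sox2 and 201 Halo-Sox2D peaks, with 317 of endogenous Sox2 and 274 of Halo-Sox2M. Both places are singled out because they hold signal in data outside the main comparison. No library of a control was used here, and the part of binding in these numbers was not tested.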

How the results depend on the processing

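No paired analysis was possible because each protein had 1 library, and for the same reason no replicate could be left out. The Halo-Sox2D share of peaks in promoters was 2.30 times the Halo-Sox2 share. It was 2.55 with a 0.5-kb window, 1.88 with 2 kb, 1.57 with 5 kb, 4.43 for peaks with another within 100 bp, and 2.02 at either end of every protein-coding gene. The number of genes with Halo-Sox2D alone was 4.53 times that with Halo-Sox2 alone, and 3.65 within gene bodies, 4.18 with 10 kb, 3.34 by nearest gene, 4.19 without bins of 5 or more peaks and 3.12 for peaks with another within 100 bp. For promoters this ratio was 6.41, and 5.58 with 2 kb, 4.77 with 5 kb and 10.8 for peaks with another within 100 bp. The ratio of shares more than 50 kb from genes was 0.598 and 0.552 to 0.614 in 6 alternatives. Of Halo-Sox2 peaks 20.7% had a Halo-Sox2D peak within 500 bp, and 4.67% by overlap, 10.6% within 50 bp, 17.8% within 200 bp, 22.8% within 1000 bp, 25% with dense bins kept, 16.8% without bins of 5 or more peaks, 18.1% for joined places and 11.5% for peaks with another within 100 bp. For Halo-Sox2D the share was 9.61%, and 2.04%, 4.84%, 8.17%, 10.8%, 11.2%, 7.95%, 7.88% and 6.61% in the same order. No ratio crossed 1. A stricter peak threshold was not run, since the lists hold no score. The gene counts are limited by depth, which is unknown.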

Other observations

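On the X chromosome the fusions were nearly equal in number, with 114 Halo-Sox2 and 109 Halo-Sox2D peaks, a ratio of 0.956 (0.729 to 1.25), whereas over the autosomes it was 2.30 (2.23 to 2.38) and ran from 1.54 on chromosome 14 to 2.80 on chromosome 9. Endogenous Sox2 had 79 X peaks. The Y chromosome had 13 Halo-Sox2 peaks and 1 Halo-Sox2D peak, with 2 of endogenous Sox2. The number of X chromosomes in each culture was not measured.

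Among 88 groups of 20 or more genes that share the letters at the start of their symbol, the largest shares of promoters with a Halo-Sox2D peak were at Dnajc genes, which encode partners of heat shock chaperones (8 of 20), Cox genes, mostly of the last respiratory complex (7 of 20), Rbm genes of RNA-binding proteins (10 of 30) and Polr genes of the RNA polymerases (7 of 22). Halo-Sox2 had 0 in each of these groups. In 3 of the 88 groups the Halo-Sox2 share was the higher one. These groups were ordered by the values given, so the values are a description.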
